A study of Gallus gallus with 4 samples.

Results

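The genes described here encode structural or other secreted proteins of the extracellular matrix. They are the collagen chains COL4A1, COL5A2 and COL9A3, the secreted protein CTHRC1, fibronectin (FN1), fibrillin 1 (FBN1) and fibulin 1 (FBLN1). They make up 7 of the 932 genes to which a symbol could be matched here, and are read by 11 of the 42034 gene probes. Symbols were matched to only 954 of these probes. A gene said below to have no symbol may still have a probe, and members or related genes may have further unnamed probes. They were chosen by their measured ratio, since the study's gene tables, from which the members come, list genes that differed between the cell types on these same arrays. The values below are therefore a description of these genes and not a test of whether they changed.

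The study compared 2 kinds of chicken embryo fibroblasts on 4 two-color oligonucleotide arrays, each of which carried RNA from both. Primary CEF cells were taken at passage 4 from dissociated whole 10-day-old specific-pathogen-free embryos and labeled with Cy3. DF-1 cells, an immortal line that arose from embryos of chicken Line 0, which lacks endogenous virus, were taken at a late passage and labeled with Cy5. Both were grown in the same serum-containing medium, and the question was how transcription in the immortal line differs from that of primary cells with a limited life span. DF-1 is a single line, and the primary cells did not come from the embryos that gave rise to it, so immortality, passage and origin cannot be told apart. The dyes were never exchanged, so on these arrays a dye effect on a probe cannot be told apart from a difference between the cells either. The study added spike-in RNA to adjust possible dye effects. It also reported matching directions by quantitative PCR for other genes, none of them a member. The sample labels number the arrays as replicates 1 to 4, and the study's methods state 4 biological replicates of each cell type. The design text, however, mentions 1 sample of each cell type. Errors and p-values below therefore rest on the spread between these arrays, which may be technical. In bulk RNA, fewer cells of a type and less RNA per cell cannot be told apart.

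The extracellular matrix is laid down largely by fibroblasts. Fibrillar collagens give it tensile strength, network-forming collagens build basement membranes, fibronectin fibrils link cells through integrins to the surrounding matrix and help to organize collagen deposition, and fibrillin microfibrils and fibulins form the scaffold of elastic fibers. Transcript levels measure neither the amount of these proteins nor the assembled matrix, and the study itself warns that transcript and protein levels may not correlate.

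COL5A2, FBN1 and FN1 were each read by several probes, which did not always give the same ratio, and their sequences are shown so that the readouts can be told apart. Each probe is given as the study's supplementary oligonucleotide table lists it, 5′ to 3′, under the sequence record it was designed from. The strand each probe reads relative to the transcript is not given in the sources used here. By its letters, FN1 CR353830 appears to match fibronectin coding sequence only on the opposite strand, whereas BX933838 and U21327 match it as printed. CR353830 may therefore not read the FN1 transcript at all, and its strand was not tested. Capitals in the first sequence mark GG at intervals of 9 bases, the pattern of collagen coding sequence, in which glycine, whose codons start with GG, recurs at regular steps.
COL5A2 BX935516: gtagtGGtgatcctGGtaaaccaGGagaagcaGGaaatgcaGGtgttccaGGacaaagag
COL5A2 CR385318: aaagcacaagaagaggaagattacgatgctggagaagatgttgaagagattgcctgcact
FBN1 AF194817: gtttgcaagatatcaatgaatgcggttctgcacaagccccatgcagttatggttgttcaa
FBN1 U88872: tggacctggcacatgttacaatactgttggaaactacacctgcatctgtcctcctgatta
FN1 BX933838: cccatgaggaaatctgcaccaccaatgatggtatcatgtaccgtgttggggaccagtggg
FN1 CR353830: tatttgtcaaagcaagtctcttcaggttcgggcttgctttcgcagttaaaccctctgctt
FN1 U21327: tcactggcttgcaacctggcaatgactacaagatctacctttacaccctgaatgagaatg

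The 11 probes of the 7 genes were 60 bases long, with a GC content of 35% to 53.3%. Between probes of the same gene, the longest stretch shared on the same strand was 5 to 7 bases, so they read separate parts of the sequence. The COL5A2 probe BX935516 held 6 GG at a spacing of 9. A run of 4 or more at that spacing, on either strand, was found in 5 of the 1773 probe sequences that could be read, or 0.282%. These sequences come from the study's list of genes that differed, so this is not a share of the whole array. Of the other 4 probes, 1 was that of COL4A3, another collagen chain, and the rest had no symbol.

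All 11 probes gave less signal from DF-1 than from primary CEF cells on every one of the 4 arrays. Values are log2 ratios with DF-1 over primary cells, so that -1 is a level 2-fold lower in DF-1. A probe was called lower at a mean log2 ratio under -1 and an unadjusted p under 0.05 in limma, and 11 of 11 member probes were called lower, beside 6.06% of all gene probes (6.04% with the adjusted p in place of the unadjusted one) and 42.3% of the named genes. Because the members were listed for this very contrast, nothing is read from that count. The median of the member probes was -2.14, against -0.85 over the 932 named genes and 0.22 over all gene probes. No member probe lay outside the threshold, and the nearest to it was FBN1 U88872 at -1.29.

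**Figure D1:**
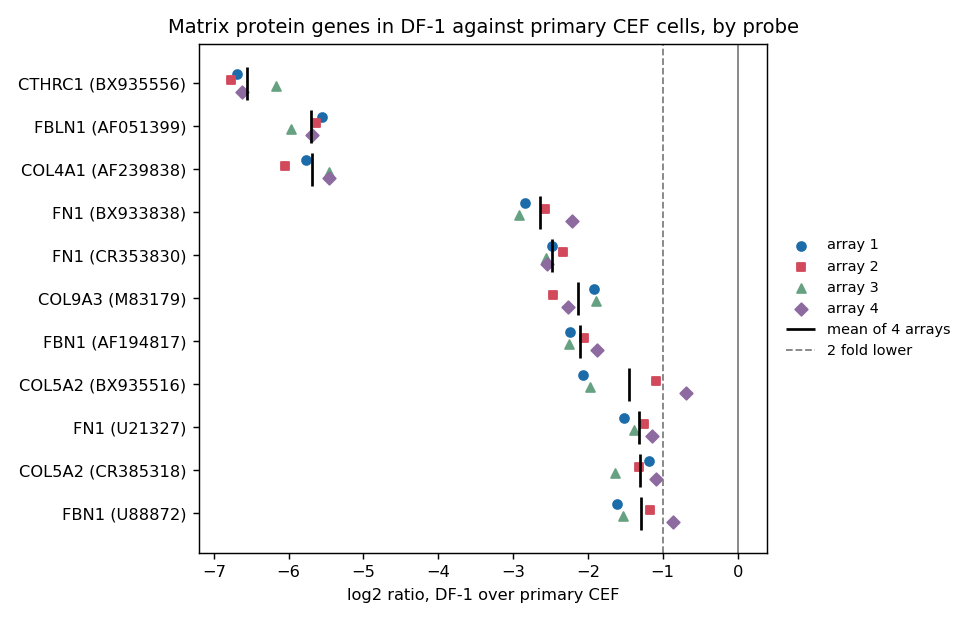
Log2 ratio of DF-1 over primary CEF on the horizontal axis for each of the 11 probes (gene, with sequence record), with 1 symbol for each of the 4 arrays, a bar at their mean and a dashed line at a level 2-fold lower. All points lie below 0; CTHRC1, FBLN1 and COL4A1 form a set of probes with means of -5.68 or below, and the other 8 probes have means between -2.64 and -1.29.

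CTHRC1, a secreted glycoprotein that was named for its collagen triple helix repeat and is expressed during tissue repair and matrix remodeling, was lowest. Its log2 ratios were -6.69, -6.77, -6.17 and -6.62 on arrays 1 to 4, with a mean of -6.56 ± 0.27 (SD, n = 4). This is a ratio 94.4-fold lower in DF-1, or 1.06% of the primary signal, and its mean ranked 10 from the lowest of the 42034 gene probes. Intensities were not used, so whether the DF-1 signal lay above background was not tested. Array 3 was the highest of the 4.

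FBLN1, which binds fibronectin and basement membrane proteins and is deposited in elastic fibers, and COL4A1, a chain of the main basement membrane collagen, followed at nearly the same ratio. FBLN1 gave -5.55, -5.63, -5.96 and -5.68 on arrays 1 to 4, a mean of -5.71 ± 0.18 (SD, n = 4), 52.3-fold lower in DF-1. COL4A1 gave -5.76, -6.05, -5.46 and -5.46, a mean of -5.68 ± 0.29 (SD, n = 4), 51.4-fold lower. Array 3 was the lowest for FBLN1 and array 2 for COL4A1, so no array stood low for both. These means ranked 34 and 35 from the lowest of all gene probes. For these genes too, whether the DF-1 signal lay above background was not tested.

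FN1, whose protein forms the fibrils that cells bind through integrins, had 3 probes, of which CR353830 is the one of doubtful strand. BX933838 gave -2.84, -2.58, -2.92 and -2.21, a mean of -2.64 ± 0.32 (SD, n = 4), and CR353830 gave -2.49, -2.33, -2.56 and -2.55, a mean of -2.48 ± 0.11 (SD, n = 4). U21327 gave -1.52, -1.25, -1.39 and -1.14, a mean of -1.32 ± 0.17 (SD, n = 4). In fold terms DF-1 was 6.23-fold, 5.59-fold and 2.50-fold lower at the 3 probes, and every array of U21327 lay above every array of the other two. U21327 minus BX933838 was 1.32, 1.33, 1.54 and 1.07 on arrays 1 to 4, a mean of 1.32 ± 0.19 (SD, n = 4), so the ratios of these probes were 2.49-fold apart. Against CR353830 the difference was 1.16 ± 0.19 (SD, n = 4), positive on 4 of 4 arrays, whereas the difference of 0.16 ± 0.34 (SD, n = 4) between CR353830 and BX933838 was smaller than its spread. A single fold change for FN1 therefore depends on the probe used, also between the 2 probes that match as printed.

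FBN1, the main component of extracellular microfibrils, showed a steady difference between its probes. AF194817 gave -2.24, -2.06, -2.25 and -1.88, a mean of -2.11 ± 0.17 (SD, n = 4), or 4.31-fold lower in DF-1. U88872 gave -1.62, -1.17, -1.53 and -0.87, a mean of -1.29 ± 0.34 (SD, n = 4), or 2.45-fold lower. U88872 was the higher probe on 4 of 4 arrays, by 0.63, 0.89, 0.72 and 1.02 and by 0.81 ± 0.17 (SD, n = 4) on average. Both probes ordered the arrays in nearly the same way, with array 4 highest, then array 2, then arrays 1 and 3. Arrays 2 and 4 lay above arrays 1 and 3 at 44.5% of all gene probes, so this order is not particular to FBN1.

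COL5A2, a chain of the fibrillar collagen that helps to set the diameter of collagen fibrils, had the widest spread of the 7 genes. BX935516 gave -2.07, -1.09, -1.97 and -0.68 on arrays 1 to 4, a mean of -1.45 ± 0.67 (SD, n = 4), and CR385318 gave -1.18, -1.32, -1.63 and -1.10, a mean of -1.31 ± 0.24 (SD, n = 4). At BX935516, arrays 1 and 3 were low and arrays 2 and 4 high, and 88.0% of the 2548 probes called lower had a smaller SD. The other COL5A2 probe did not divide the arrays in this way. CR385318 minus BX935516 was 0.89, -0.23, 0.34 and -0.41, a mean of 0.14 ± 0.59 (SD, n = 4), and positive on 2 of 4 arrays. The means thus differed by less than the spread between arrays, at 2.74-fold and 2.48-fold lower in DF-1. The 4 other probes with the GG repeat had SDs of 0.18 to 0.32.

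COL9A3, a chain of a collagen that coats cartilage fibrils, gave -1.92, -2.47, -1.89 and -2.27, a mean of -2.14 ± 0.28 (SD, n = 4), or 4.40-fold lower in DF-1. Here arrays 2 and 4 lay below arrays 1 and 3, opposite to COL5A2 BX935516. This order was held by COL9A3 alone of the 11 member probes, by 5.92% of all gene probes and by 13.2% of those called lower. With all arrays brought to a median of 0, it was held by 3 of 11 member probes (27.3%) and 20.2% of all gene probes.

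**Figure D2:**
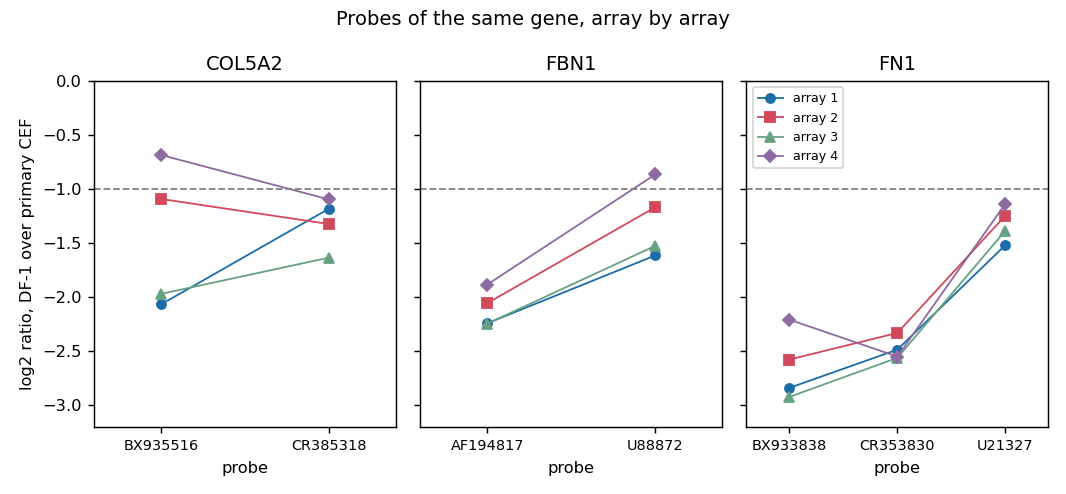
Log2 ratio of DF-1 over primary CEF (vertical axis) at each probe of COL5A2, FBN1 and FN1, with 1 line for each of the 4 arrays and a dashed line at a level 2-fold lower. FBN1 U88872 and FN1 U21327 lie above the other probes of their gene on all 4 arrays, while the COL5A2 lines cross.

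Averaged over the probes of a gene, the means were -2.15 ± 0.16 for FN1, -1.70 ± 0.26 for FBN1 and -1.38 ± 0.41 for COL5A2 (SD, n = 4). From the lowest ratio the order was CTHRC1, FBLN1, COL4A1, FN1, COL9A3, FBN1 and COL5A2. FBLN1 lay above CTHRC1 by 0.85 ± 0.44 (SD, n = 4) and on 4 of 4 arrays, though by as little as 0.20. FBLN1 and COL4A1 differed by 0.02 ± 0.42 and FN1 and COL9A3 by 0.01 ± 0.43 (SD, n = 4), each with a positive difference on 2 of 4 arrays, so the order within these pairs is not settled. Without CR353830, an average chosen after seeing the data, FN1 was at -1.98 ± 0.24 (SD, n = 4) and lay above COL9A3 by 0.16 ± 0.48, on 2 of 4 arrays, and below FBN1 on all 4. COL9A3 and FBN1 differed by 0.44 ± 0.51 (SD, n = 4), also within the spread. The widest step, 3.54 ± 0.34 (SD, n = 4), separated COL4A1 from FN1, and it was at least 3.17 on each array. COL5A2 lay above FBN1 by 0.32 ± 0.17 (SD, n = 4), with a smallest difference of 0.08. These orders hold for averages over probes. By single probes, the mean of FBN1 U88872 (-1.29) lay above those of both COL5A2 probes (-1.45 and -1.31). That of FN1 U21327 (-1.32) lay above that of FBN1 AF194817 (-2.11). The order of FN1, FBN1 and COL5A2 therefore depends on the probes used.

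**Figure D3:**
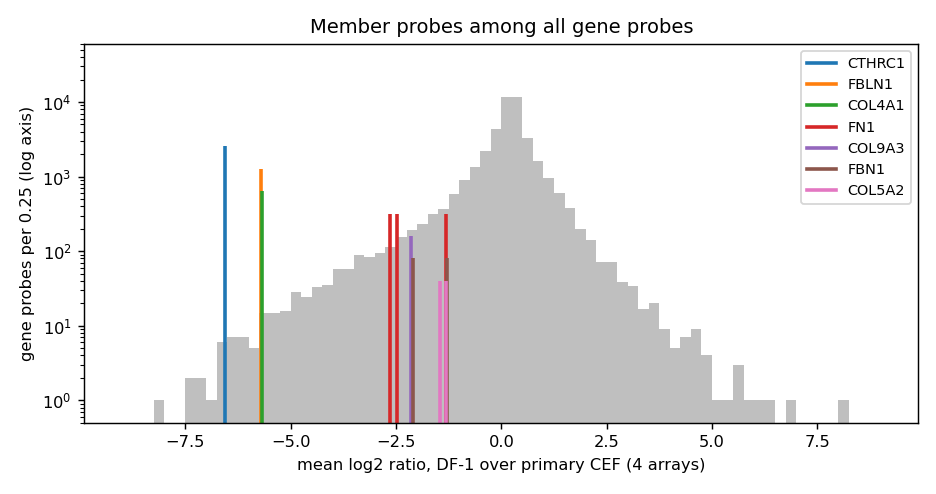
Histogram of the mean log2 ratio of DF-1 over primary CEF (horizontal axis, 4 arrays) for the 42034 gene probes, with the number of probes in each interval of 0.25 on a log axis, and a colored line at each of the 11 member probes, drawn to a different height for each gene for visibility alone. All members lie in the left tail, where 2548 probes were called lower, and CTHRC1 ranks 10 from the lowest.

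The arrays did not share a common center, which bears on every ratio above. The median over gene probes was -0.04, 0.20, 0.21 and 0.47 on arrays 1 to 4, and that of 153 negative control spots was 0.02, 0.17, 0.38 and 0.53. Across the 42034 gene probes, arrays 1 and 3 correlated at 0.929 and arrays 2 and 4 at 0.893, and all other pairs between 0.813 and 0.861, a description over probes that share arrays and are no independent replicates. Arrays 2 and 4 both lay above arrays 1 and 3 at 5 of 11 member probes (45.5%), beside 44.5% of all gene probes and 54.4% of the probes called lower. The part of these array differences in the members' spread was not tested. When all arrays were brought to a median of 0, every mean fell by 0.21, and 3 of 11 member probes (27.3%) kept that order, beside 25.1% of all gene probes. With this shift 7.76% of gene probes were called lower and 4.16% higher, whereas 6.06% and 6.12% were without it (6.11% higher with the adjusted p). All 11 member probes were called lower in either case, and CTHRC1, FBLN1 and COL4A1 then stood at -6.77, -5.92 and -5.89.

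The other genes of the same matrix systems were read from lists of related genes. Nearly all of those with a symbol had been picked by the study on these arrays. Their counts, and the adjusted p-values of single genes below, are therefore no independent evidence of a direction. For comparison, 42.3% of all named genes were called lower and 42.7% higher. Of 44 collagen genes listed, 10 had a symbol, 3 of them members. Of the 7 that are not members 6 fell and 1 rose, with a median of -2.47. COL11A1, a cartilage fibril chain, fell most, at -5.27 ± 0.28 (SD, n = 4, adjusted p = 6.8e-08 in limma), followed by COL8A1, a short-chain collagen of vessel walls and the cornea, at -3.70 ± 0.42. COL4A3, a basement membrane chain, was at -2.49 ± 0.31, COL6A1, of beaded microfibrils, at -2.47 ± 0.14, and COL5A1, the usual partner of COL5A2 in type V collagen, at -1.73 ± 0.24 (SD, n = 4).

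COL3A1, a fibrillar collagen typical of soft connective tissue and a neighbor of COL5A2 in the chicken genome, gave -2.49, -1.92, -2.41 and -1.55, a mean of -2.09 ± 0.44 (SD, n = 4, adjusted p = 3.4e-05 in limma). As at COL5A2 BX935516, but not at COL5A2 CR385318, arrays 2 and 4 lay above arrays 1 and 3. This order was held by 44.5% of all gene probes and 54.4% of those called lower. The gene on the other side of COL5A2, WDR75, a ribosome biogenesis factor, rose, with 1.24, 1.60, 1.12 and 1.56 and a mean of 1.38 ± 0.24 (SD, n = 4, adjusted p = 0.00011 in limma). ATIC, a purine synthesis enzyme beside FN1, also rose, to 1.38 ± 0.12 (SD, n = 4, adjusted p = 6.2e-05 in limma). These were the 3 genes with a symbol among the 14 that flank the 7 members in the RefSeq annotation of GRCg7b, and WDR75 and ATIC are named after their values were seen.

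COL17A1 was the collagen that rose. This transmembrane collagen, which anchors epithelial cells to the basement membrane, gave 2.25, 3.03, 2.68 and 3.04, a mean of 2.75 ± 0.38 (SD, n = 4, adjusted p = 3.8e-06 in limma), or 6.72-fold higher in DF-1. None of 9 epithelial marker genes had a symbol, so a change in epithelial transcripts in general was not tested.

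Among basement membrane genes other than the collagens, 3 are given here, each of which fell. The heparan sulfate proteoglycan AGRN was at -3.21 ± 0.11, the laminin chain LAMB2 at -1.89 ± 0.27 and PXDN, a peroxidase that cross-links type IV collagen, at -1.30 ± 0.33 (SD, n = 4). Of 35 genes listed for collagen making and cross-linking, 4 had a symbol, 1 of them the member CTHRC1. The study describes CTHRC1 as a secreted inhibitor of collagen expression. The other 3 fell, with a median of -1.79. They were TGM2, a transglutaminase that cross-links matrix proteins, at -3.77 ± 0.26, the lysyl hydroxylase PLOD2 at -1.79 ± 0.22, and P4HA1, a subunit of the prolyl hydroxylase that stabilizes the collagen helix, at -1.55 ± 0.19 (SD, n = 4). In the elastic fiber list, 3 of 27 genes had a symbol, 2 of them members chosen for their ratio, and all 3 fell. The one that is no member, FBLN5, which organizes elastin on microfibrils, was at -1.99 ± 0.12 (SD, n = 4), against -5.71 for its relative FBLN1. With 42.3% of all named genes called lower, nothing is read from the counts of these lists.

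Of 26 receptor genes for collagen and fibronectin, 4 had a symbol, with a median of 0.19, and 1 fell, 2 rose and 1 was not called. Among all named genes 42.3% were called lower and 42.7% higher, so nothing is read from this split about receptors in general. ITGA8, a fibronectin-binding integrin chain, fell to -2.47 ± 0.19 (SD, n = 4, adjusted p = 2.2e-06 in limma). ITGA4, whose integrin also binds fibronectin, rose, with 1.84, 2.58, 1.65 and 3.24 and a mean of 2.33 ± 0.73 (SD, n = 4, adjusted p = 0.00012 in limma), or 5.01-fold higher in DF-1. Arrays 2 and 4 were the high ones. ITGA9, a related integrin chain, rose to 1.23 ± 0.24 (SD, n = 4, adjusted p = 0.00023 in limma). ITGB1, the chain with which these alpha chains pair, gave -1.06, -0.72, -1.07 and -0.54, a mean of -0.85 ± 0.26 (SD, n = 4), short of the 2-fold threshold, and it was called lower at -1.06 when all arrays were brought to a median of 0.

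**Figure D4:**
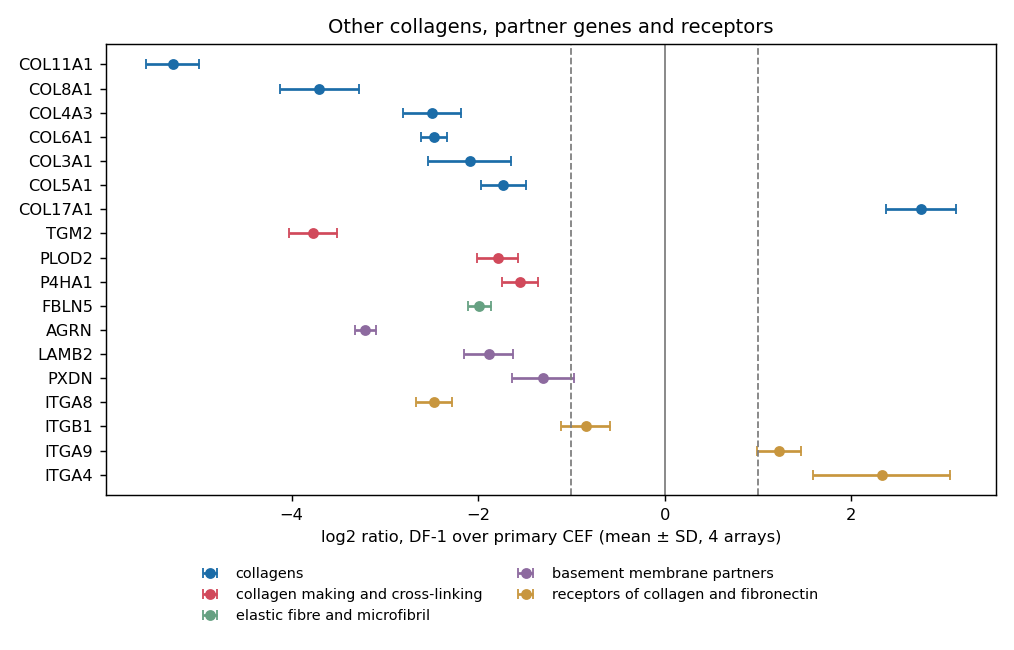
Mean log2 ratio of DF-1 over primary CEF (horizontal axis, bars ± SD over 4 arrays) for the other collagens and for genes of collagen making, elastic fibers, basement membranes and receptors, colored by list, with dashed lines at 2-fold lower and higher. COL17A1, ITGA4 and ITGA9 lie to the right of 0 and all other genes shown to the left.

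Among 36 fibronectin partners and fibril assembly genes, 11 had a symbol, 1 of them the member FN1. The other 10 all fell, with a median of -4.11, from NOV at -8.17 ± 0.09 to THBS1, the mean of 2 probes, at -1.35 ± 0.14 (SD, n = 4). Both genes of the TGF-beta list that had a symbol, of 13, fell: the ligand TGFB2 to -2.62 ± 0.17 and the receptor TGFBR1 to -1.10 ± 0.14 (SD, n = 4). Of 35 matrix proteases and inhibitors, 6 had a symbol and 5 fell, with a median of -1.52. The inhibitor SERPINE2 was at -4.04 ± 0.11, and the protease MMP16, not called, was at -0.996 ± 0.288 (SD, n = 4). These counts stand beside 42.3% of all named genes called lower. Nothing is read from them, since nearly all genes with a symbol had been picked by the study on these arrays.

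The few markers of other cell types that had a symbol were lower in DF-1 as well, beside 42.3% of all named genes. Nearly all genes with a symbol had been picked by the study on these arrays, so nothing is read from these counts. Of 16 cartilage markers, 3 had a symbol, 1 of them the member COL9A3. The other 2, COL11A1 and SOX9, the transcription factor of cartilage cells, were lower, SOX9 at -1.95 ± 0.37 (SD, n = 4). The endothelial marker CLDN5 was at -2.98 ± 0.27, the only 1 of 10 with a symbol, and the muscle factor MYOD1 at -1.22 ± 0.23, the only 1 of 11 (SD, n = 4). The fibroblast markers DCN, LUM and COL3A1, the 3 of 15 with a symbol, were lower too, at -4.66 ± 0.22, -3.18 ± 0.08 and -2.09 ± 0.44 (SD, n = 4). The part of a different makeup of cell types in the members' ratios was not tested, and since ratios carry no level, they do not show whether either culture expressed its defining markers.

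For each member, the named gene outside the set with the most similar ratios on the 4 arrays was found, by the root mean square of the differences, among 925 genes. FBN1 was closest to CCNG2, a cyclin G family member, at a difference of 0.043, and COL9A3 to CSRP2, a LIM-domain protein of muscle cells, at 0.062. FN1 was nearest to CTSA, a lysosomal carboxypeptidase, at 0.104 (without CR353830, to SLC37A2 at 0.108), COL5A2 to FMO6 at 0.131, and FBLN1 to IGFBP7, a secreted binding protein, at 0.145. The most distant partners were those of CTHRC1 and COL4A1. CTHRC1 was paired with PTGS2, the inducible cyclooxygenase, at 0.254, and COL4A1 with DKK3, a secreted protein of the Dickkopf family, at 0.266. With 4 arrays of 1 contrast these distances mainly order genes by their mean ratio.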

How the data were processed

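Total RNA of both cell types was labeled and hybridized by the authors to 4 Agilent 44K chicken arrays, which were scanned with a GenePix scanner, corrected for background and normalized by loess within each array. The authors deposited the result as linear ratios of DF-1 over primary CEF and, in a second table, as log2 ratios, which agreed to within 5.0e-05. The log2 of the ratios was used without centering. Columns of means and SDs were not used, and 0 columns belonged to no array of the series. Intensities were not used here, so no filter on dim spots was possible and precision is limited by the number of arrays.

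Symbols were matched by accession to 954 probes (932 genes), 905 from the study's tables and 49 from RefSeq, and 4 probes with several symbols stayed unnamed. Genes with several probes were averaged. With limma 3.58.1 (R 4.3.3), each mean over arrays was tested against 0, two-sided. As in the study's methods, a probe was called where its mean log2 ratio lay past 1 or -1 and its unadjusted p fell below 0.05. The log ratios and counts published by the study differ from those given here. Benjamini-Hochberg adjusted p-values cover all 42034 gene probes; genes were fitted together with all unnamed probes. The fit was tested on simulated data.

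Members and the 8 lists of matrix genes and 5 of cell markers (277 genes, 46 with a symbol, 7 of them members) were chosen with earlier results of these data known. Every member, the gene nearest to each and every listed gene with a symbol could be named, except 1 basement membrane gene that is not reported here, for which reason no count is given for that list. Alternatives were the adjusted p, centering, a common spread, robust variances, the other table, medians over probes, leaving out each array and, added after seeing the data, FN1 without its probe of doubtful strand. Python 3.11.15, numpy 2.4.6, pandas 2.3.3 and matplotlib 3.10.9 made the tables and figures.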

Additional observations from a re-analysis of the deposited data

Results flagged for a closer look

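Of 55 results checked for an array that stands apart from the other 3, 1 did. The difference between the FN1 probes CR353830 and BX933838 was 0.35, 0.25, 0.36 and -0.34 on arrays 1 to 4, so array 4 lay apart, with a gap to the nearest array of 0.836 of the whole range, above Dixon's critical value for 4 samples. Chance flags about 1 in 20 groups. CR353830 is the FN1 probe of doubtful strand. At BX933838 array 4 was the highest of the 4, at -2.21, while at CR353830 it was at -2.55, beside -2.56 on array 3. The cause was not tested.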

How the results depend on the processing

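All 11 member probes were lower in DF-1 and past the threshold under every alternative run: the adjusted p, each array at a median of 0, a common spread, robust variances, the other deposited table and leaving out each array. The mean of COL5A2 BX935516 ranged from -1.71 to -1.25 when single arrays were left out. The difference between the COL5A2 probes, CR385318 minus BX935516, changed sign: it was 0.14, and -0.10 without array 1, with a range of -0.10 to 0.33. With FN1 averaged without CR353830, chosen after seeing the data, FN1 moved from -2.15 to -1.98 and COL9A3 minus FN1 changed sign, from 0.01 to -0.16. The count of receptors that fell went from 1 to 2 with each array at a median of 0, and to 2 with a common spread as well, through ITGB1. MMP16, at -0.996, passed at -1.21 with each array at a median of 0 and with a common spread, and at -1.01 without array 1 and -1.12 without array 4. Over all gene probes, 2548 were lower and 2571 higher, which became 3262 and 1749 with each array at a median of 0 and 3264 and 1778 with a common spread. No paired analysis was possible because all 4 arrays form 1 group and each array already carries both cell types. Alternatives on background or dim spots were not run, since intensities were not used here.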
